A study of Homo sapiens with 2 samples.

Results

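The binding of PRDM1 was examined at 7 genes that encode regulators of B-cell identity, namely BCL6, BACH2, SPIB, ID3, EBF1, SPI1 and POU2AF1, in the human multiple myeloma line U266. A peak was assigned to a gene when its summit lay in the gene body or within 25 kb of it on GRCh37, and genes without a peak were kept. By this rule 7 of the 9669 peaks in the complete list belonged to the 7 genes, and they lay at 5 of them. The data came from chromatin immunoprecipitation and sequencing (ChIP-seq) of U266 cells, for which the labels name no treatment, with 1 library made with the rabbit monoclonal PRDM1 antibody C14A4 and 1 library of input DNA made without antibody. U266 is an established line, labelled as plasma cell lymphoma, and neither library had a replicate or a second condition, so every interval below covers counting error only. The design text speaks of a pair of myeloma lines and the growth protocol also names NCI-H929, but both libraries analysed here are labelled U266. A peak list holds no expression values, so neither the cell type nor the transcription of the 7 genes could be checked in it.

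PRDM1 (BLIMP-1) is a transcriptional repressor with zinc fingers, and it ends the B-cell programme when a B cell becomes an antibody-secreting plasma cell. The B-cell programme is held by a network of transcription factors that includes the ETS factors SPI1 (PU.1) and SPIB, the lineage factor EBF1, the repressors BCL6 and BACH2, and the coactivator POU2AF1, and several of its genes are known as targets of PRDM1. BCL6 and BACH2 in turn are known to repress the PRDM1 gene, so the factors oppose each other.

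The PRDM1 library held 7854466 tags after removal of duplicates and the input library held 8556458. This was 2.91 and 3.17 tags per kb of effective genome. The smallest peaks listed held 9 tags, so weaker binding would not appear in the list. For each peak the deposited list gives the tags, a score that is the −log10 p of the tags against the input multiplied by 10, the fold of the summit over the local background, and a false discovery rate (FDR) from calling with ChIP and input swapped. All 4 are the authors' values. From the score, the tags expected from the input were recovered, and "times the expected tags" below is the tag count, scaled to the input library, over that expectation, with a 95% Poisson interval on the PRDM1 tags alone. The expectation is the background that the caller used, which need not equal the local input. The error of the expectation, which rests on few input tags, is not in these intervals. Where intervals do not overlap, a difference beyond the counting error of both libraries is therefore not shown. The authors' filtered list keeps the 887 peaks that hold 50 tags or more and have an FDR no higher than 5%.

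The 7 genes fell into 3 sets. SPIB, ID3 and SPI1 had peaks at an FDR of at most 5%, and SPIB and ID3 each had one of the filtered list. BACH2 and EBF1 had only peaks with a higher FDR. BCL6 and POU2AF1 had no peak in their windows. Of the 7 peaks, 4 had an FDR of at most 5% (57.1%, exact 95% binomial interval 18.4 to 90.1), where 43.5% of the complete list did. The filtered list held 2 of the 7 (28.6%, 3.67 to 71.0), where it held 9.17% of the complete list. The same 4 peaks also passed an FDR of 1%, which 30.2% of all listed peaks passed. The intervals of 57.1% and 28.6% include the shares of the complete list, so 7 peaks are too few to set these genes apart from it.

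**Figure D1:**
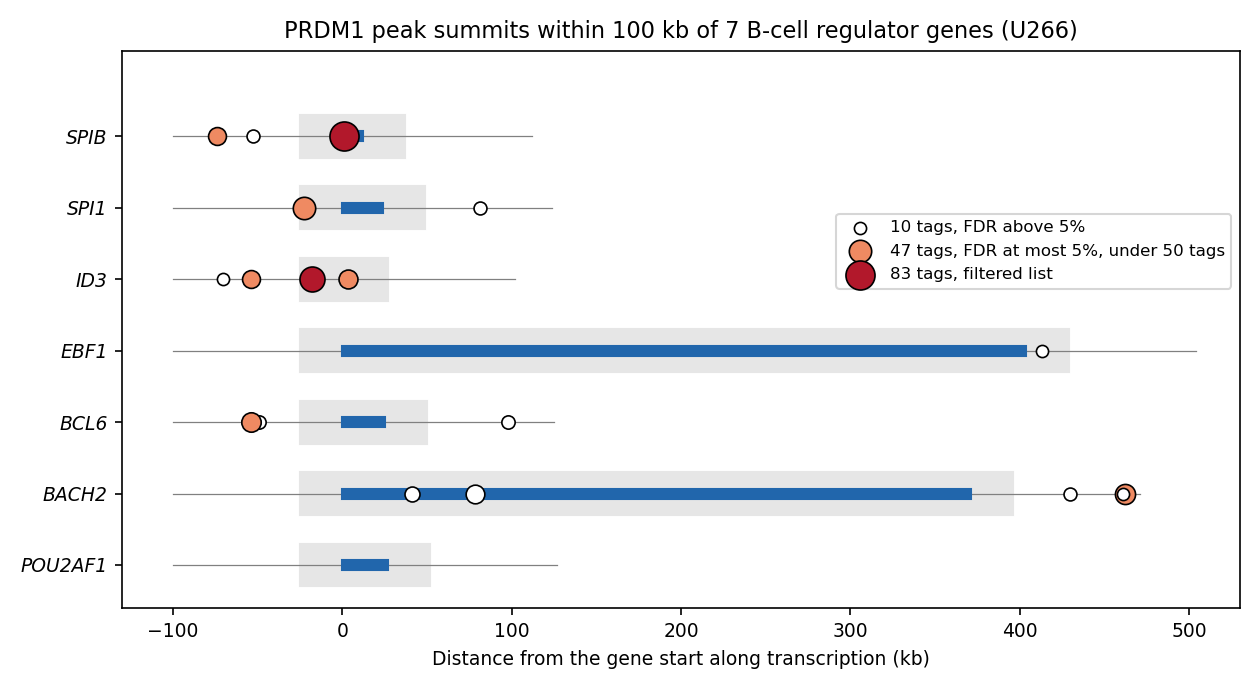
Summits of PRDM1 peaks within 100 kb of each gene, by distance from the gene start along the direction of transcription in kb. Blue bars are gene bodies, grey boxes the 25 kb windows, and the area of a circle grows with the tags of the peak (red for the filtered list, orange for an FDR of at most 5% with fewer than 50 tags, white for a higher FDR). The red circles stand at SPIB, with 83 tags, and at ID3, with 60, and no circle lies within 100 kb of POU2AF1.

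The 250 bases before the RefSeq gene start are shown for SPIB, whose peak lies at the 5′ end of the gene, and for EBF1, whose promoter was the only one of those examined to hold a searched motif. Capitals mark GAAAGT, which contains the core of the known PRDM1 motif. The sequences are from RefSeq on GRCh38.p14, chr19:50418688-50418937 on the plus strand for SPIB and chr5:159097957-159098206 on the minus strand for EBF1, and these positions cannot be set against the GRCh37 positions of the peaks.
SPIB: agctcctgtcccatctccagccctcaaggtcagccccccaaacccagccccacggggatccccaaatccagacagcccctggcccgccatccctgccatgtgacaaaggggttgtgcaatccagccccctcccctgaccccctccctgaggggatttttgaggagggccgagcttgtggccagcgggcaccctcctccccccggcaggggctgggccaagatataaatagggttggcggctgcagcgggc
EBF1: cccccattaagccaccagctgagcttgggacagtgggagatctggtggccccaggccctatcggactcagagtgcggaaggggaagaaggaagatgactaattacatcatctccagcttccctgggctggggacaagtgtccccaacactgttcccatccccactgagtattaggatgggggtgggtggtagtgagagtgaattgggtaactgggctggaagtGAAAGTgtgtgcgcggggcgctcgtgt

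Promoters of 300 bases, from 250 before to 50 after the start, were in the table for 5 of the 7 genes, with 2 for BCL6 and 1 each for BACH2, SPIB, ID3 and EBF1. GAAAGT was searched on both strands and was found in 1 of these 6 promoters, at bases -27 to -22 from the start of EBF1, and in 13.3% of all 35116 promoters of the table. The core of interferon response elements, GAAA repeated with 2 bases of any kind between the copies, was likewise searched on both strands and was found in none of the 6 and in 3.57% of all promoters. Both strings begin with GAAA, so the searches can overlap. The promoter with the match belongs to a gene whose only peak in the window lay beyond its other end, and the SPIB promoter above holds neither string. The sequence under the peaks was not analysed here.

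The listed peaks of the 2 ETS factors differed in place and in tag count. SPIB encodes an ETS factor of B cells and plasmacytoid dendritic cells that acts with the octamer-binding factors. Its peak on chromosome 19, at chr19:50922324-50923681, was 1358 bp wide and its summit lay in the gene body, 0.9 kb from the gene start, which is known here to the nearest 1 kb. It held 83 tags, the most of the 7 peaks, with a score of 505.2, a fold of 26.25 and an FDR of 0%. The input predicted 10.9 tags over the region, so the peak held 8.28 times the expected tags (95% interval 6.6 to 10.3). By score it ranked 431 of 9669, in the top 4.46% of the list. The interval lies above the median of the complete list, 5.54 times. The peak was below the median of the 667 peaks of its own size, 50 to 99 tags. That median was 9.6 times and lies inside the interval.

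SPI1 encodes PU.1, which is needed for the early B-cell and myeloid lineages and binds the same purine-rich core as SPIB. Its peak on chromosome 11, at chr11:47421842-47422871, had its summit 22.4 kb before the start of the gene, on the side of the neighbouring gene SLC39A13. It held 47 tags, a little under the 50 tags of the filtered list, with a score of 179.03 and an FDR of 0.12%. The input was high there, at 3.47 times the genome mean, and the peak held 4.50 times the expected tags (3.31 to 5.99). That interval includes the median of the complete list. It does not overlap the interval of the SPIB peak, but the input predicted only 11.3 tags here and 10.9 there, and the error of those was not included. All 36 peaks of the list with exactly 47 tags passed the FDR limit, and their median was 7.25 times the expected tags.

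ID3 was the only one of the 7 genes with more than 1 peak at an FDR of at most 5%. ID3 is a small helix-loop-helix protein without a DNA-binding region that holds E proteins such as TCF3 in inactive pairs. The larger peak, at chr1:23903129-23904260, had its summit 17.7 kb before the gene start, towards RPL11, the next protein-coding gene in RefSeq order. It held 60 tags at a score of 454.7, a fold of 25 and an FDR of 0%. Its 11.5 times the expected tags (8.76 to 14.8) was the highest of the 7 peaks, although the interval overlaps that of the SPIB peak and includes the 9.6 times of peaks of 50 to 99 tags. The smaller peak, at chr1:23881920-23883068, lay just past the other end of the gene, with its summit 1.42 kb beyond the gene end and 21.1 kb from the first summit. It held 32 tags with an FDR of 0.27%, which was 4.93 times the expected tags (3.37 to 6.96). The ratio was thus higher at the peak farther from the gene, over expectations of 5.66 and 6.89 input tags whose error is not in the intervals.

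EBF1 encodes the early B-cell factor that, with PAX5, commits cells to the B lineage. Its gene body is 404 kb long and held no summit. A single weak peak at chr5:158113517-158114112 lay 9.19 kb beyond the gene end. It held 10 tags with a fold of 9.47 and an FDR of 42.46%. The background recovered from its score equalled the genome mean, as did the lower quartile of the complete list, so the local input may be lower. The tags were 5.29 times the expected tags (2.54 to 9.74). Of the 1521 peaks in the list with 10 tags, 7 passed an FDR of 5%, so a peak of this size is at the limit of what the depth could show.

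**Figure D2:**
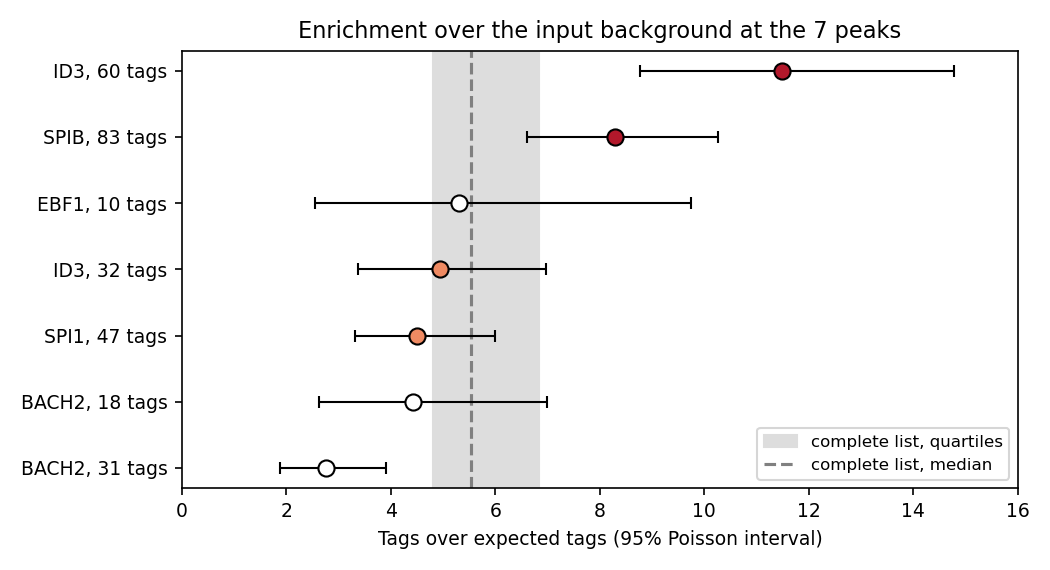
Tags over expected tags for each of the 7 peaks, named by gene and tag count, with 95% Poisson intervals, coloured by filter class (red for the filtered list, orange for an FDR of at most 5% with fewer than 50 tags, white for a higher FDR). The grey band spans the quartiles of the complete list, 4.80 to 6.84, around its median of 5.54: the ID3 peak of 60 tags and the SPIB peak lie above the median with their whole intervals, and the BACH2 peak of 31 tags lies below it.

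The repressors BCL6 and BACH2 had no peak that passed the FDR limit in their windows. BACH2 encodes a repressor of the plasma-cell programme in B cells. Both of its peaks lay inside its 371 kb gene body, at 41.0 kb and 78.4 kb from the gene start and 37.4 kb from each other. The first, at chr6:90965624-90966340, held 18 tags at an FDR of 7.39%, and the second, at chr6:90928213-90929148, held 31 tags at an FDR of 12.3%. The peak with more tags was the less enriched of the pair, at 2.75 times the expected tags (1.87 to 3.90) against 4.42 times (2.62 to 6.98), though these intervals overlap. Its input background was 4.05 times the genome mean, the highest of the 7 peaks, and that of the other was 1.89 times. Outside the window, a stronger peak at chr6:90544302-90545353 lay 91.1 kb past the gene end. It was singled out after its values were seen. It held 37 tags at an FDR of 0%, with an interval of 8.45 to 16.5 times the expected tags. That interval overlaps those of the SPIB peak and the larger ID3 peak. The other peaks within 100 kb past the gene end held 10 and 12 tags, at an FDR of 17.59% and 15.94%.

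The peak of 31 tags in BACH2 and the peak of 32 tags at ID3 held nearly equal tags over different expectations. The input predicted 12 tags at the BACH2 peak and 6.89 at the ID3 peak, and the scores were 68.1 and 135.7. The error of these expectations was not included. The intervals of tags over expected, 1.87 to 3.90 at BACH2 and 3.37 to 6.96 at ID3, overlap even so. Of the 182 peaks in the list with 31 or 32 tags, 161 passed an FDR of 5% and 21 did not, the BACH2 peak among them. Over peaks of 25 to 49 tags, 93.1% passed.

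BCL6 encodes the repressor that drives the germinal centre reaction. Its window of 75 kb held no peak. The nearest summit lay 49.1 kb before the gene start, at chr3:187512865-187513537, with 13 tags and an FDR of 40.94%. A stronger peak stood next to it, 53.8 kb before the gene start at chr3:187517383-187518434, which was singled out after its values were seen. It held 34 tags at an FDR of 0.08%, which was 9.25 times the expected tags (6.41 to 12.9). Its interval overlaps those of the SPIB peak and the larger ID3 peak. On the other side the nearest summit lay 72.8 kb past the gene end, with 13 tags and an FDR of 48.18%. The stretch without a summit around BCL6 was 147 kb long, and 48.6% of the 9645 gaps between neighbouring summits were as long or longer.

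POU2AF1 encodes the coactivator OCA-B, also called BOB.1, which joins octamer-binding factors on immunoglobulin and other B-cell promoters. No peak lay in its window of 77 kb or within 100 kb. The nearest summits lay 0.707 Mb before the gene start, with 9 tags and an FDR of 47.97%, and 3.12 Mb past the gene end, with 20 tags and an FDR of 0.3%. The gene thus lay in a stretch of 3.85 Mb on chromosome 11 without a summit in the complete list, from 108107372 to 111957335. Of the 9645 gaps between neighbouring summits, 45 (0.467%) were as long, and the median gap was 140.4 kb. This share, like the one given for BCL6, counts gaps and not sequence. Long gaps cover more sequence, so a gene lies in one as long as this more often than 0.467% states. Gaps across centromeres and unassembled sequence were counted too. Neither the input level nor the copy number inside this stretch is known from the list, so the lack of a listed peak does not show that PRDM1 did not bind there.

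**Figure D3:**
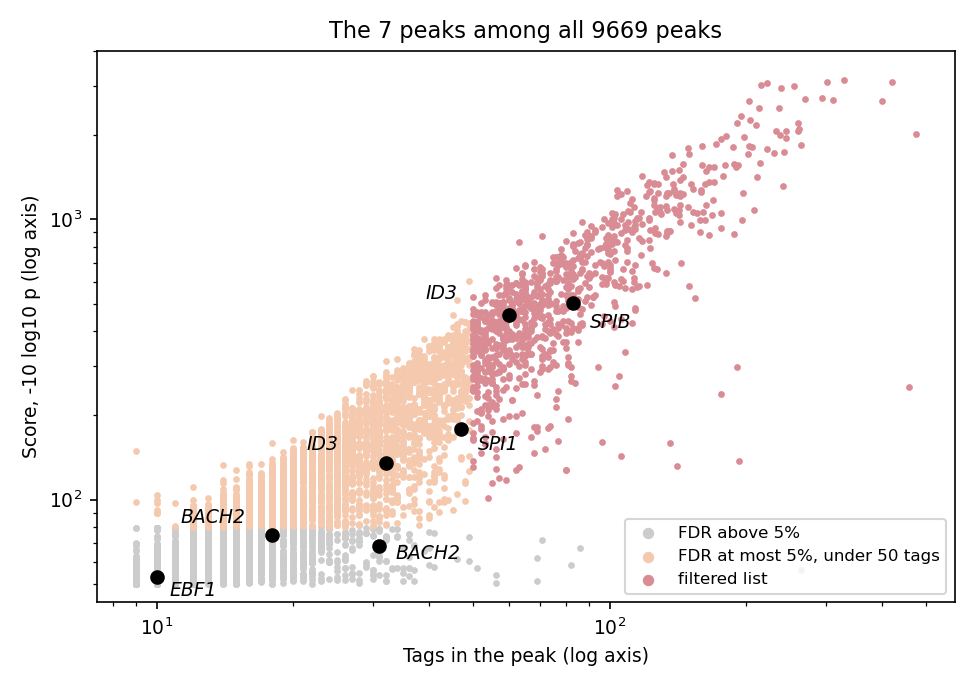
Score against tags for all 9669 peaks, both on log axes, coloured by filter class, with the 7 peaks of the B-cell regulator genes as labelled black points. The SPIB peak and the ID3 peak of 60 tags lie among the filtered peaks, and the BACH2 peak of 31 tags lies in the grey group despite nearly the same tags as the ID3 peak of 32.

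As a group the 7 peaks had a median of 32 tags, from 10 to 83, where the complete list had a median of 15. Their median fold was 10.83 against 11.04 in the complete list, and their median of tags over expected was 4.93 against 5.54. Their input background had a median of 1.89 times the genome mean, against 1.26. In the complete list the median ratio was 5.43 times at 9 to 11 tags, 5.24 times at 15 to 24, 6.67 times at 25 to 49 and 9.6 times at 50 to 99. Beside listed peaks of the same tag class, 6 of the 7 peaks lay below the class median, and the ID3 peak of 60 tags lay above it. By definition as many listed peaks lie below a class median as above it. The interval lay wholly below the class median only for the BACH2 peak of 31 tags and the SPI1 peak. For the others it included the class median, so the count does not show a shared trait. Beside the median of the complete list, the interval lay above for 2 peaks, below for 1, and included it for 4.

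The windows of the 7 genes covered 1.215 Mb and held 5.76 peaks per Mb (exact 95% Poisson interval 2.32 to 11.9), where the complete list gave 3.58 per Mb of effective genome. For the filtered list the values were 1.65 per Mb (0.199 to 5.95) and 0.329 per Mb. Both intervals include the value of the whole genome. Within 25 kb of any summit lay 15.2% of the effective genome, and 1.59% lay within 25 kb of a filtered one. These shares hold for a single position, whereas the bodies of the 7 genes were 2 to 404 kb long and come near a summit more often. The counts of genes with a peak therefore cannot be set against them, and the share of all genes with a peak was not computed. The limit of 25 kb cut between the SPI1 peak, at 22.4 kb with 47 tags, and the nearest peak of BCL6, at 49.1 kb with 13 tags, and no summit of the 7 genes lay between these distances.

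Other regulators of the same programme were placed by the same rule. Among 13 other genes of the B-cell side, 10 had at least 1 peak by the same rule, 7 had one at an FDR of at most 5% and 4 had one of the filtered list. These 4 were CIITA, POU2F2, ID2 and LMO2. The windows of the 13 genes held 9.37 peaks per Mb (exact 95% Poisson interval 5.46 to 15) and 2.2 filtered peaks per Mb (0.6 to 5.64). Both intervals lie above the values of the whole genome, 3.58 and 0.329, but overlap those of the 7 genes. The 13 genes were chosen with earlier results of these data known, so enrichment at them is not shown. The intervals also take peaks of 1 gene as independent, and CIITA and IKZF1 had 3 each. The reference is the whole genome and not windows of genes. CIITA, the coactivator of MHC class II genes, had the strongest of the filtered peaks at these genes, with 237 tags. It held 23.4 times the expected number (20.6 to 26.6), which is above the intervals of all 7 peaks described here. POU2F2 encodes OCT2, a partner of the POU2AF1 product, and had a peak of 125 tags at 18.7 times the expected number (15.6 to 22.3), its summit 3.4 kb into the gene. ID2, a close relative of ID3, had a peak of 72 tags with its summit 0.444 kb before the gene start, at 13 times (10.2 to 16.4). LMO2, a LIM-only adaptor of blood progenitors and germinal centre B cells, had 56 tags 1.55 kb before its start, at 13.7 times (10.4 to 17.8). The intervals at ID2 and LMO2 overlap that of the larger ID3 peak.

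IRF8, TCF3 and BCL11A had no peak in their windows, like BCL6 and POU2AF1. The remaining 6 genes, PAX5, IKZF1, IKZF3, FOXO1, MEF2C and ETS1, had peaks of 10 to 38 tags, none of the filtered list. A filtered peak of 78 tags lay 26.0 kb past the end of IKZF3, just outside the limit. Of 3 genes of the plasma-cell side, PRDM1 itself had a peak of 45 tags at 11.4 times the expected number (8.33 to 15.3). In their windows IRF4 had 1 of 10 tags and XBP1 had none. The PRDM1 body used was 24 kb long, where RefSeq on GRCh38 gives 117.2 kb. A filtered peak of 112 tags, at 22.8 times (18.8 to 27.5), lay outside the PRDM1 window, 93.6 kb before the start used. Its place outside rests on the short body, and whether a window around the longer body would hold this peak was not checked. At IRF4 a filtered peak of 53 tags lay 44.6 kb before the start, also outside the window. No test was made between these genes and the 7 described here.

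**Figure D4:**
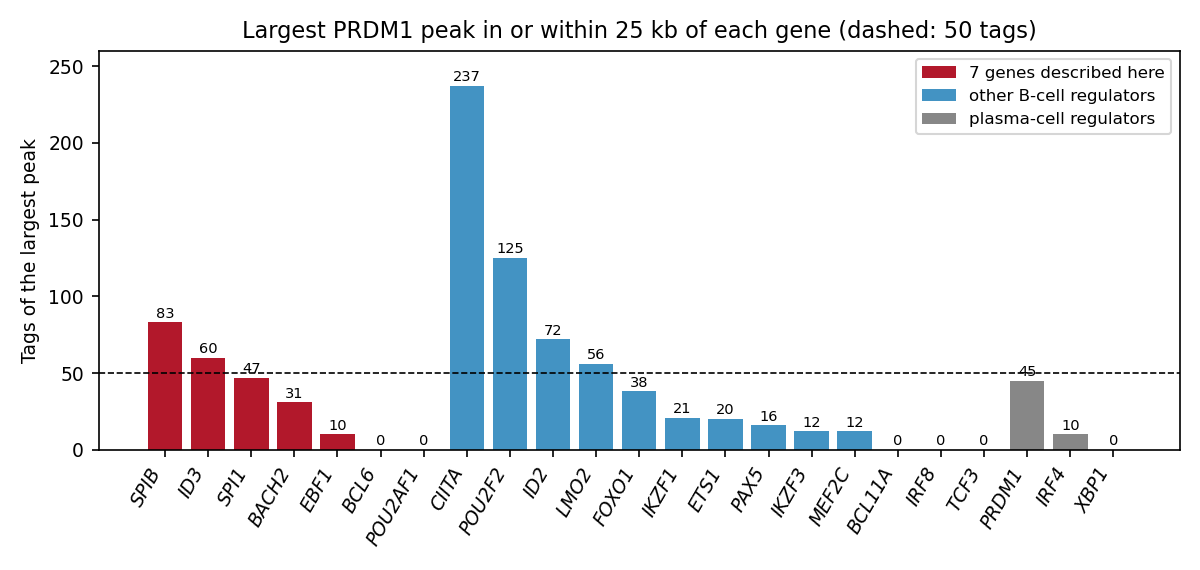
Tags of the largest PRDM1 peak in or within 25 kb of each gene, for the 7 genes described here (red), 13 other regulators of the B-cell programme (blue) and 3 of the plasma-cell programme (grey). A value of 0 means that no peak was listed. SPIB and ID3 in red and CIITA, POU2F2, ID2 and LMO2 in blue stand above the dashed line at 50 tags. The PRDM1 value rests on a gene body of 24 kb.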

How the data were processed

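Per the submitters' processing notes, the tools were CASAVA 1.8.2 and Bowtie 0.12.7, followed by MACS 1.4. Peaks were called by the authors with MACS 1.4.1 on merged alignments against the input, and per the file headers the p cutoff was 1e-05, fragments were taken as 200 bp and the effective genome as 2700 Mb. The deposited values are a raw tag count per peak, a score (the −log10 p multiplied by 10), a fold ratio at the summit and an FDR percent. The build is not given in the sources used here; no peak passed a GRCh37 chromosome end and 53 passed a GRCh38 one, with lengths from general knowledge.

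Gene bodies were rounded to 1 kb. Those of the 7 genes came with the rule that placed the peaks, and those of the 16 others from general knowledge. The lengths used came within 2 kb of RefSeq on GRCh38 for all 7 genes and for 11 of 16 others. The remaining 5 (IKZF1, CIITA, POU2F2, BCL11A and PRDM1) have other annotated ends there, so their windows may be short or long. Strands came from general knowledge, and those of 5 of the 7 genes matched the RefSeq promoter table.

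Expected tags were solved from the deposited score, after multiplying the tags by 1.09, the ratio of input to PRDM1 tags, and rounding down. For 98.7% of 9667 peaks this gave a whole summit height within 0.06 tags. With SciPy 1.17.1, the expectation was recovered within 1% for all 200 simulated peaks. Their scores were made with the same formula, so this checks the solving only. It cannot show that the caller computed its scores in this way. With 1 library of each kind, no test between groups was made. All 7 genes were named, with every peak in their windows. The nearest peak on either side was given for BCL6 and POU2AF1, which had none in their windows. Other genes were given values where a filtered peak lay in the window. IKZF3, PRDM1 and IRF4, and the farther peaks at BCL6 and BACH2, were given values after these were seen. The rest are counted or only named. Members and lists were chosen with earlier results of these data known. The filtered list equalled the complete list cut at its stated limits. Alternatives were other windows, overlaps, peak lists and scalings.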

Additional observations from a re-analysis of the deposited data

How the results depend on the processing

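The 7 peaks in the windows became 3 in the gene bodies alone and 18 within 100 kb, and 4 at an FDR of at most 5% or 1% and 2 in the filtered list, as fewer peaks are kept. The genes with a peak, 5, became 2 in gene bodies alone, 3 at an FDR of at most 5% or 1%, and 2 in the filtered list. Genes with a filtered peak, 2, became 1 in gene bodies alone and within 10 kb, where ID3 drops out, and 0 at 100 tags or more. The density of 5.76 peaks per Mb became 3.47 in gene bodies alone, 3.29 at an FDR of at most 5% or 1%, and 1.65 in the filtered list. The whole list went from 3.58 per Mb to 1.56 at an FDR of at most 5%, 1.08 at 1% and 0.329 in the filtered list. POU2AF1 had no peak in any window tried, and BCL6 had 1 within 50 kb and 3 within 100 kb. Placing peaks by overlap of 1 bp or 50% changed none of these counts by over 1.5 times. All 14 recalculations of tags over expected, with rounding to the nearest or unscaled tags, stayed inside their intervals. With summed GRCh37 chromosome lengths, chosen after seeing the data, the complete list gave 3.12 peaks per Mb against 3.58. No paired analysis was possible because neither PRDM1 nor input had a replicate, and none could be left out. The depth limits weak sites: of 2473 peaks with 9 to 11 tags, 0.445% passed an FDR of 5%.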
